A study of Mus musculus with 4 samples.

Results

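The 7 genes described here, Celf1, Celf2, Celf4, Elavl1, Elavl2, Elavl3 and Elavl4, encode RNA-binding proteins of the CELF and ELAV-like families. They were taken by symbol, 7 of the 27998 genes of the Illumina matrix, together with all of their isoforms, 52 of the 31986 isoform rows of the Nanopore matrix. Each of the 52 isoforms had at least 1 UMI (unique molecular identifier, the tag that marks 1 captured RNA molecule). The cells were dissociated from the brain of a C57BL/6 mouse embryo at stage E18, where cortex, hippocampus and sub ventricular zone were combined. They were captured with the Chromium system in 1 emulsion that was divided into an aliquot of 190 cells and an aliquot of 951 cells, and the cDNA of each aliquot was read with short Illumina reads and long Nanopore reads. No genotype, allele or treatment differed between the libraries, so the comparisons made below are between cell classes and between the sequencing platforms. The aliquots are technical replicates of 1 cell suspension, and every p-value here measures only the spread between them, not between animals.

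CELF and ELAV-like proteins each carry RNA recognition motifs, a pair near the start of the protein and another near its end, with a linker (hinge) in between. ELAV-like proteins bind U-rich and AU-rich stretches of mRNAs, where they stabilize transcripts and promote translation, and they also act on splicing and poly(A) site choice in the nucleus. Elavl1 (HuR) is made in most cell types, whereas Elavl2, Elavl3 and Elavl4 (HuB, HuC and HuD) are known as proteins of neurons and of cells that are becoming neurons. CELF proteins bind GU-rich RNA and act on alternative splicing, mRNA decay and translation. Celf1 and Celf2 are widely made, and Celf4 is a largely neuronal protein tied to excitability.

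After cells with fewer than 1400 detected genes were left out, 1121 of 1141 barcodes remained, 186 and 935 in the 190 and the 951 cell aliquot. Their Illumina libraries held 1809081 and 8295650 UMIs and their Nanopore libraries 993220 and 4889148. Of the 11 clusters, 9 formed 7 classes that were named from a list of markers and had enough cells for tests, 1 was Cajal-Retzius-like and 1, led by Crym and Nrp2, stayed unnamed. The 7 tested classes were radial glia-like (13 and 53 cells in the 190 and the 951 cell aliquot), intermediate progenitor-like (16 and 69), cycling radial glia-like (24 and 92), immature glutamatergic-like (39 and 189), mature glutamatergic-like (35 and 167), immature GABAergic-like (31 and 144) and mature GABAergic-like (17 and 127). The first 3 are called progenitors below and the other 4 neurons. The cycling radial glia-like class was named from 8 genes of dividing cells only. Its next best marker list was that of intermediate progenitors, with 5 markers raised, so it can hold dividing progenitors of more than 1 kind. The 7 genes were kept out of the clustering, so that they did not define the classes. Median depth was 10677 UMIs per cell in radial glia-like and 4892 in mature GABAergic-like cells. In the sums of the 7 classes, markers of microglia reached at most 11.7, of endothelial cells 16.9 and of mural cells 38.7 CPM (UMIs scaled for the depth of the class sum). Haemoglobin mRNAs lay between 429.7 and 669 CPM in every class, and markers of oligodendrocyte precursors lay between 97.6 and 161 CPM in intermediate progenitor-like and cycling radial glia-like cells. The part of these RNAs in the results below was not tested. Among the kept cells 12 barcodes occurred in both aliquots.

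Among the 7 tested classes, radial glia-like cells had the lowest level of each neuronal Elavl gene, and each of the 3 genes had its own order among the others. Levels are given as Illumina CPM of the class sum, first for the 190 and then for the 951 cell aliquot. Elavl3 stood at 55.5 and 61.7 in radial glia-like, 363.9 and 373.6 in cycling radial glia-like and 300.01 and 358.5 in intermediate progenitor-like cells. In neurons it stood at 705.0 and 701.0 in immature glutamatergic-like, 613.5 and 619.7 in mature glutamatergic-like, 625.8 and 612.9 in immature GABAergic-like and 715.5 and 611.5 in mature GABAergic-like cells. The ranges of the 4 neuron classes lay close together, all of them above all progenitor classes, and the class with the highest mean exceeded that with the lowest 11.997-fold.

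Elavl2 had a different order, with high levels in 1 progenitor class and 1 neuron class. It stood at 88.8 and 81.1 in radial glia-like, 219.0 and 244.0 in cycling radial glia-like and 402.3 and 466.3 in intermediate progenitor-like cells. It then stood at 265.9 and 287.2 in immature glutamatergic-like, 169.0 and 166.3 in mature glutamatergic-like, 193.0 and 140.2 in immature GABAergic-like and 477.0 and 317.8 in mature GABAergic-like cells. The ranges of intermediate progenitor-like and mature GABAergic-like cells overlapped at the top, and those of mature glutamatergic-like and immature GABAergic-like cells overlapped lower down.

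Elavl4 was the least even of the 3 between the aliquots. It stood at 38.8 and 41.2 in radial glia-like, 341.3 and 158.0 in cycling radial glia-like and 320.5 and 254.2 in intermediate progenitor-like cells. In neurons it stood at 154.6 and 145.7 in immature glutamatergic-like, 97.2 and 81.2 in mature glutamatergic-like, 292.4 and 117.9 in immature GABAergic-like and 280.0 and 192.6 in mature GABAergic-like cells. Radial glia-like cells lay below all other tested classes, mature glutamatergic-like cells lay next above them, and the remaining ranges mostly overlapped. The 190 cell aliquot gave the higher level in 6 of 7 classes, with a median ratio of 1.26 between the aliquots.

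Elavl1 ran the other way. It stood at 127.6 and 140.4 in radial glia-like, 128.8 and 130.6 in cycling radial glia-like and 95.5 and 109.4 in intermediate progenitor-like cells, and its neuron values lay between 64.3 and 103.7. Radial glia-like and cycling radial glia-like cells were above every neuron class in both aliquots, and the neuron classes overlapped each other. The whole span between the highest and the lowest class mean was 1.86-fold, the second smallest of the 7 genes.

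Among the Celf genes, Celf2 separated glutamatergic-like neurons from the rest. It stood at 460.4 and 358.3 in radial glia-like, 367.1 and 367.5 in cycling radial glia-like and 668.2 and 575.7 in intermediate progenitor-like cells. It stood at 1280.1 and 1172 in immature glutamatergic-like and 1324 and 1158 in mature glutamatergic-like cells, against 614.1 and 675.3 in immature GABAergic-like and 746.6 and 635.6 in mature GABAergic-like cells. The glutamatergic-like ranges overlapped each other and lay above all others, and the GABAergic-like ranges overlapped that of intermediate progenitor-like cells.

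Celf4 had its highest levels in GABAergic-like neurons. It stood at 72.1 and 38.7 in radial glia-like, 135.2 and 142.8 in cycling radial glia-like and 211.4 and 129.6 in intermediate progenitor-like cells. In neurons it stood at 293.7 and 247.6 in immature glutamatergic-like, 208.4 and 182.7 in mature glutamatergic-like, 602.4 and 339.4 in immature GABAergic-like and 808.8 and 417.3 in mature GABAergic-like cells. The GABAergic-like ranges lay above all others although the 190 cell aliquot gave the higher value in 6 of 7 classes, with a median ratio of 1.63. Celf1 was the most even gene, between 79.9 and 133.2 CPM in all 14 sums, and the ranges of all neighbouring classes overlapped.

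**Figure D1:**
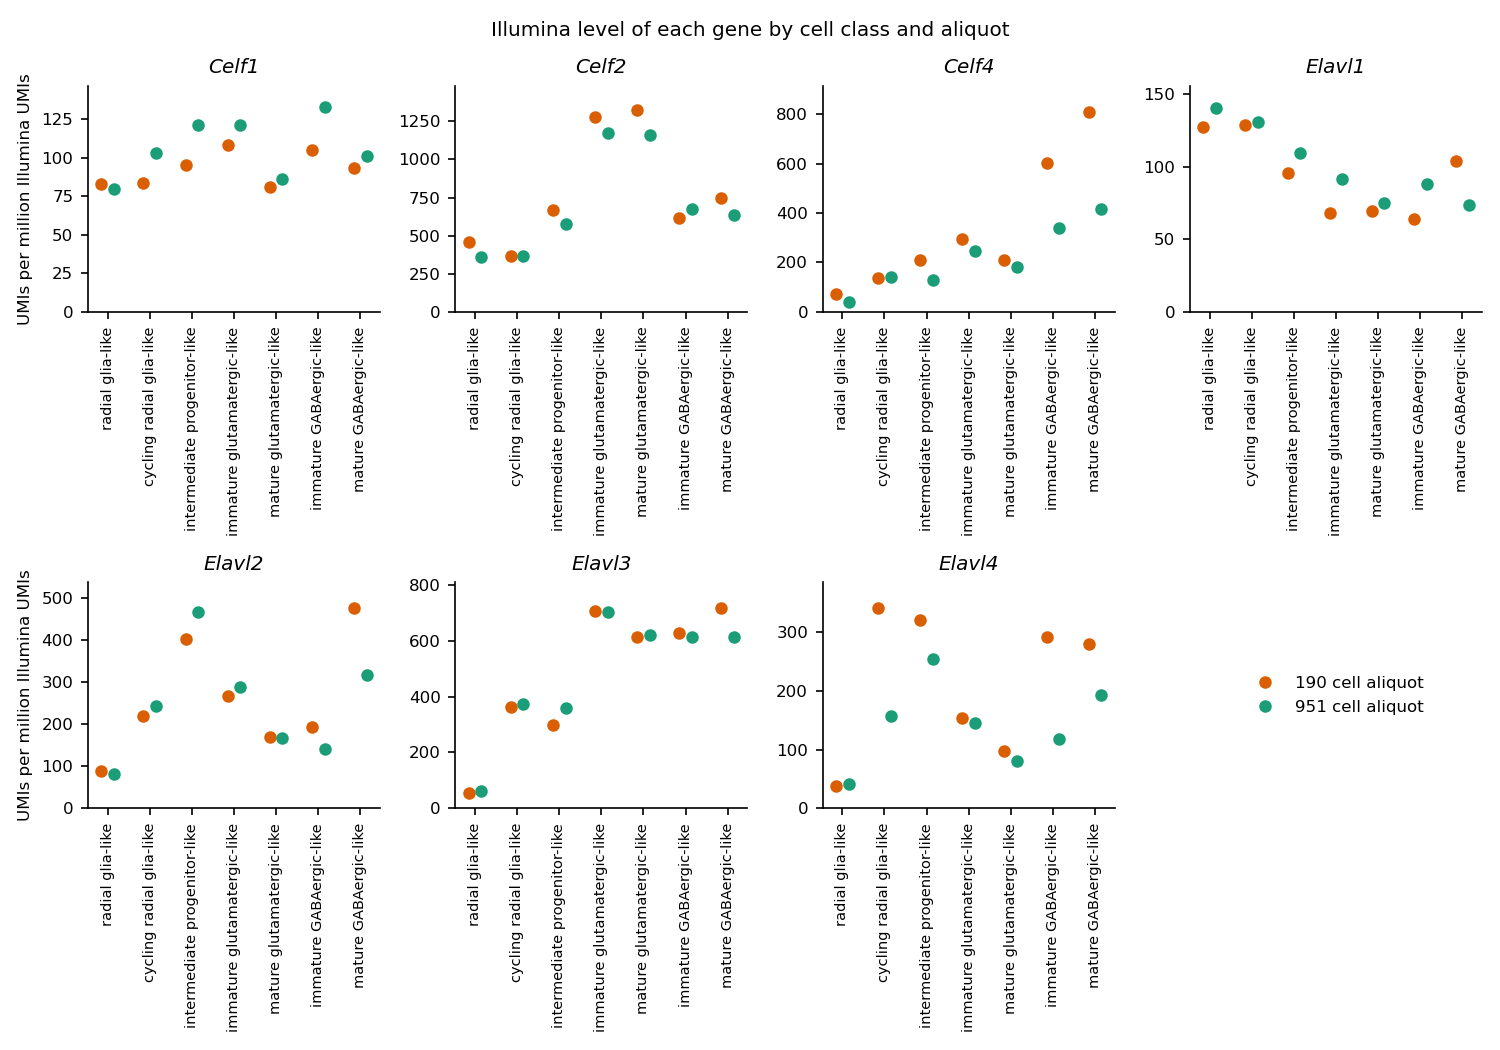
Illumina CPM (y axis, linear, a separate scale for each gene) in the 7 classes (x axis), with 1 point per aliquot. Elavl3 lies between 55.5 and 61.7 in radial glia-like cells and at 611.5 or above in all neuron classes. Elavl2 and Elavl4 have high points in progenitors too, and Elavl1 is higher in radial glia-like and cycling radial glia-like cells than in neurons.

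Sums of raw counts per class and aliquot were compared with edgeR's quasi-likelihood test, and Benjamini-Hochberg adjusted p-values over all 8152 genes tested are given. The first question was which of the genes differ between neurons and progenitors. Of the 7 genes, 4 were called at an adjusted p under 0.05, 3 higher and 1 lower in neurons, where 40.6% of all genes tested were called, 19% higher and 21.6% lower. Elavl3 was higher in neurons by 1.70 ± 0.10 on the log2 scale (SE, adjusted p = 4.65e-17). Celf4 was higher by 1.70 ± 0.19 (adjusted p = 2.49e-06) and Celf2 by 0.97 ± 0.09 (adjusted p = 1.01e-11). Elavl1 was lower, with a log2 difference of -0.65 ± 0.13 (adjusted p = 0.000108). These 4 calls held under all 9 alternatives. Celf1 (0.11 ± 0.13, adjusted p = 0.562), Elavl2 (0.14 ± 0.15, adjusted p = 0.501) and Elavl4 (0.09 ± 0.25, adjusted p = 0.834) were not called. For Elavl2 and Elavl4 the progenitor group joined radial glia-like cells at low level with other progenitors at high level. With Nanopore counts summed over isoforms, Elavl2 was called higher in neurons by 0.60 (adjusted p = 0.0048).

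The first step of differentiation, from radial glia-like to intermediate progenitor-like cells, was compared next. Of the 7 genes, 5 were called, all higher in intermediate progenitor-like cells, where 15.8% of all genes tested were called, 7.38% higher and 8.42% lower. Elavl4 was higher by 2.78 ± 0.52 on the log2 scale (adjusted p = 0.00536), Elavl3 by 2.48 ± 0.20 (adjusted p = 1.13e-11) and Elavl2 by 2.39 ± 0.22 (adjusted p = 2.11e-10). Celf4 was higher by 1.72 ± 0.39 (adjusted p = 0.0065) and Celf2 by 0.62 ± 0.16 (adjusted p = 0.00658). The Celf2 call held under 7 of 9 alternatives (adjusted p up to 0.150). Celf1 (0.49 ± 0.26, adjusted p = 0.216) and Elavl1 (-0.37 ± 0.25, adjusted p = 0.370) were not called. With Nanopore counts, where 4792 genes were tested by edgeR, Celf4 (1.61, adjusted p = 0.170) and Elavl4 (3.75, adjusted p = 0.0532) lost the call.

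From intermediate progenitor-like to immature glutamatergic-like cells, 3 of the 7 genes were called, 2 higher and 1 lower, against 9.26% of all genes tested (4.53% higher and 4.74% lower). Elavl3 was higher again, by 1.05 ± 0.17 (log2, adjusted p = 2.65e-05), and Celf2 was higher by 0.97 ± 0.16 (adjusted p = 3.56e-05). Elavl2 was lower, with a log2 difference of -0.68 ± 0.20 (adjusted p = 0.0201), and this call held under 4 of 9 alternatives. The aliquot numbers pair the sums, and with the aliquot as a replicate block 5 of the 7 were called. The calls over all genes rose too, to 1277 of 8152 with the block from 755 without it. Celf4 was then higher by 0.76 (adjusted p = 0.000802) and Elavl4 lower, at -0.89 (adjusted p = 0.000367), against 0.72 ± 0.33 (adjusted p = 0.226) and -0.93 ± 0.43 (adjusted p = 0.265) without the block. With Nanopore counts the Celf2 difference was 0.12 (adjusted p = 0.845).

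Between immature and mature glutamatergic-like neurons 1 gene was called, lower in the mature class, against 4.66% of all genes tested (2.54% higher and 2.12% lower). The gene was Elavl2, at -0.65 ± 0.20 on the log2 scale (adjusted p = 0.0458), and the call was lost under 7 of 9 alternatives (adjusted p from 0.000127 to 0.445 over all 9). Elavl4 stood at -0.69 ± 0.43 (adjusted p = 0.554) and, with the replicate block, at -0.71 (adjusted p = 0.00624). The other 5 genes were not called in either fit.

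Between immature and mature GABAergic-like neurons 1 gene was also called, higher in the mature class, against 2.92% of all genes tested (1.23% higher and 1.69% lower). It was again Elavl2, by 1.11 ± 0.22 (log2, adjusted p = 0.00108). The Elavl2 difference between mature and immature classes thus had opposite signs in GABAergic-like and glutamatergic-like neurons. The immature GABAergic-like cluster was led by Ebf1, Isl1 and Zfhx3 and the mature one by Maf, Nxph1, Npy and Sst. Maturity and origin of these cells cannot be told apart, so maturation and lineage below only name comparisons of classes. The difference between the Elavl2 differences was tested as an interaction on the same sums, which was added after the data had been seen. It was 1.76 ± 0.29 on the log2 scale (adjusted p = 0.000164), with 2.12% of all genes tested called, and 2.27 (adjusted p = 7.71e-05) with Nanopore counts. None of the other 6 members was called for this interaction by edgeR, and none of them had an unadjusted p under 0.05. With the replicate block Elavl4 was, at 1.06 (adjusted p = 0.0169), where 5.43% of all genes were called.

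Mature GABAergic-like and mature glutamatergic-like neurons differed in 3 of the 7 genes, 2 higher and 1 lower in the GABAergic-like class, against 9.11% of all genes tested (3.55% higher and 5.57% lower). Celf4 was higher in the GABAergic-like class by 1.40 ± 0.31 (log2, adjusted p = 0.00783) and Elavl2 by 1.01 ± 0.21 (adjusted p = 0.000548). Celf2 was lower, at -1.02 ± 0.16 (adjusted p = 9.64e-06). Elavl4 stood at 1.17 ± 0.45 (adjusted p = 0.185) and was called with the replicate block, at 1.18 (adjusted p = 2.68e-05). Elavl3 (-0.08 ± 0.17), Celf1 (0.09 ± 0.25) and Elavl1 (-0.01 ± 0.26) were not called. The sign for Celf2 turned when Nanopore counts were used, to 0.58 (adjusted p = 0.137), as described with the isoforms.

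Against radial glia-like cells, mature glutamatergic-like cells differed in 5 of the 7 genes (34.5% of all genes tested were called, 16.8% higher and 17.7% lower) and mature GABAergic-like cells in 6 of the 7 (32.6%, 14.7% higher and 17.9% lower). These comparisons share the radial glia-like sums. Elavl3 was higher by 3.42 ± 0.20 (log2) in the glutamatergic-like and by 3.34 ± 0.20 in the GABAergic-like class. Celf4 was higher by 2.05 ± 0.37 and 3.46 ± 0.38, Elavl2 by 1.06 ± 0.22 and 2.07 ± 0.23, and Celf2 by 1.68 ± 0.16 and 0.65 ± 0.16, each in the same order. Elavl4 was called in the GABAergic-like class (2.34 ± 0.53, adjusted p = 0.00814) and, in the glutamatergic-like class, with the replicate block (1.09, adjusted p = 0.00122) but not without it (1.16 ± 0.52, adjusted p = 0.125). Elavl1 was lower in both, at -0.84 ± 0.23 (adjusted p = 0.00364) and -0.85 ± 0.27 (adjusted p = 0.0121). The first of these Elavl1 calls held under 8 of 9 alternatives and the second under 6 of 9 (adjusted p up to 0.153). The Celf2 call in the GABAergic-like class held under 8 of 9.

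**Figure D2:**
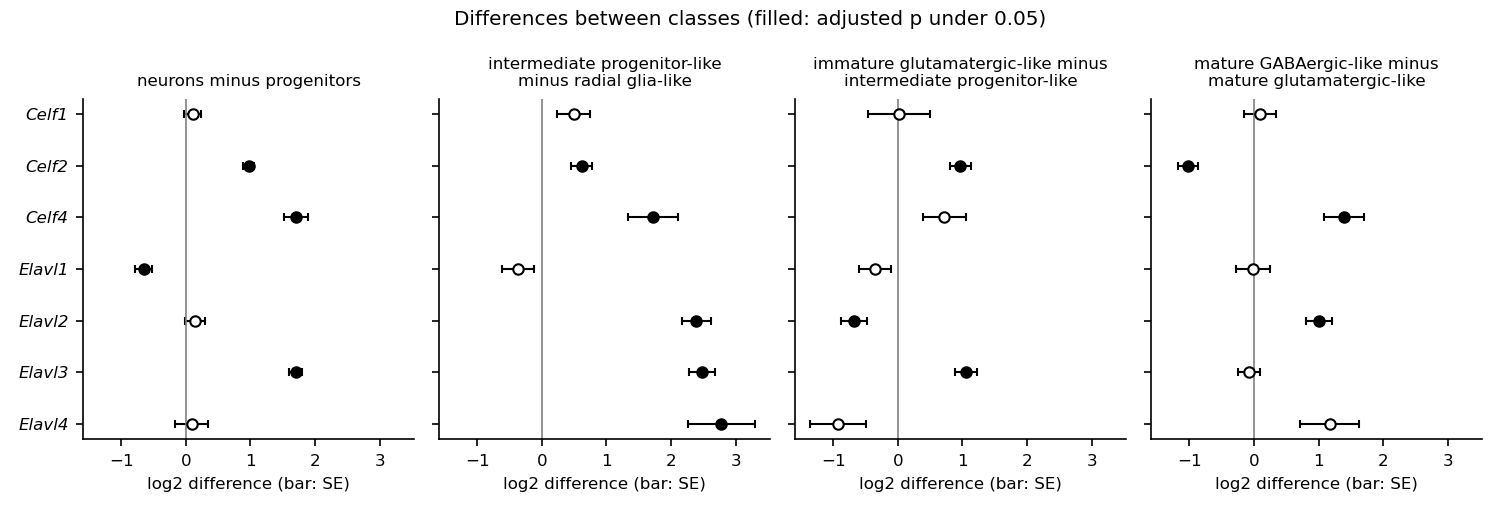
Log2 differences of the 7 genes (rows) in 4 comparisons of class sums by edgeR (panels, common x axis), with the standard error as a bar and filled points where the adjusted p was under 0.05. In the step from radial glia-like to intermediate progenitor-like cells 5 points are filled and right of 0, and between the mature neuron classes Celf2 (-1.02) lies opposite Celf4 (1.40) and Elavl2 (1.01).

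UMIs of the neuronal Elavl genes were also counted in single cells. A UMI of Elavl3 was found in 1032 of 1121 cells (92.1%), of Elavl2 in 772 (68.9%) and of Elavl4 in 594 (53.0%). Since such shares grow with depth, each cell was also thinned to 2000 UMIs, which left Elavl3 in 64.5%, Elavl2 in 34.4% and Elavl4 in 21.6% of cells. At that depth Elavl3 was found in 9.09% of 66 radial glia-like cells, 50% of cycling radial glia-like, 55.3% of intermediate progenitor-like and 71.8% of neuron class cells. Elavl2 was found in 12.1% of radial glia-like and 60% of intermediate progenitor-like cells, and Elavl4 in 7.58% and 36.5%. Free RNA in the droplets can give such UMIs, and the radial glia-like share is the lowest of the 7 classes for each of these 3 genes at equal depth. UMIs of all 3 genes were found in 9 of 66 radial glia-like cells (13.6%), 62.4% of intermediate progenitor-like and 23.4% of immature GABAergic-like cells before thinning, and in 0 of 66 (exact 95% upper limit 5.44%), 11.8% and 4.57% after it. That limit is one on cells with UMIs, not on cells expressing the genes, and it lies above the share in immature GABAergic-like cells.

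Long reads counted far fewer molecules than short reads for some of these genes, which sets how much can be said of their isoforms. A Nanopore UMI was counted only when its exon structure matched 1 annotated isoform. Per the paper it also had to match an Illumina UMI of the same cell and the same gene or genomic region. The platforms thus read the same molecules, and Nanopore counts are not an independent measurement. Over all kept cells the Nanopore UMIs were 61.0% of the Illumina UMIs for Elavl1, 41.9% for Elavl4, 37.1% for Elavl3 and 29.2% for Elavl2, but 14.4% for Celf4, 12.3% for Celf2 and 6.41% for Celf1. Compared between the platforms by edgeR over the 4 libraries, 5 of the 7 genes were called, all lower with Nanopore, where 50.5% of 9855 genes tested were called and 30.3% were called lower and 20.2% higher. The log2 differences were -2.99 ± 0.17 for Celf1, -2.09 ± 0.09 for Celf2, -1.99 ± 0.15 for Celf4, -0.90 ± 0.11 for Elavl2 and -0.50 ± 0.08 for Elavl3. Elavl1 (0.23 ± 0.11, adjusted p = 0.139) and Elavl4 (-0.24 ± 0.39, adjusted p = 0.642) were not called, while with the replicate block Elavl1 was called higher (0.21, adjusted p = 0.00871) and Elavl4 lower (-0.32, adjusted p = 0.00892). For Celf1 10 UMIs of the 190 and 57 of the 951 cell aliquot were assigned, at most 1 in any cell.

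For Celf2 the recovered share also differed between classes. It was 14.5% in radial glia-like, 19.7% in cycling radial glia-like, 20% in intermediate progenitor-like, 22.0% in immature GABAergic-like and 20.5% in mature GABAergic-like cells, but 10.996% in immature and 6.62% in mature glutamatergic-like cells. The classes with the highest Illumina level of Celf2 had the lowest recovery. The platform difference changed by 1.45 ± 0.31 (log2) from mature glutamatergic-like to mature GABAergic-like cells, with an unadjusted p of 4.19e-05 and an adjusted p of 0.150 by edgeR, where 0.014% of 7145 genes tested were called. Which Celf2 molecules were not assigned was not analysed here, so the Celf2 shares below describe the assigned ones.

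**Figure D3:**
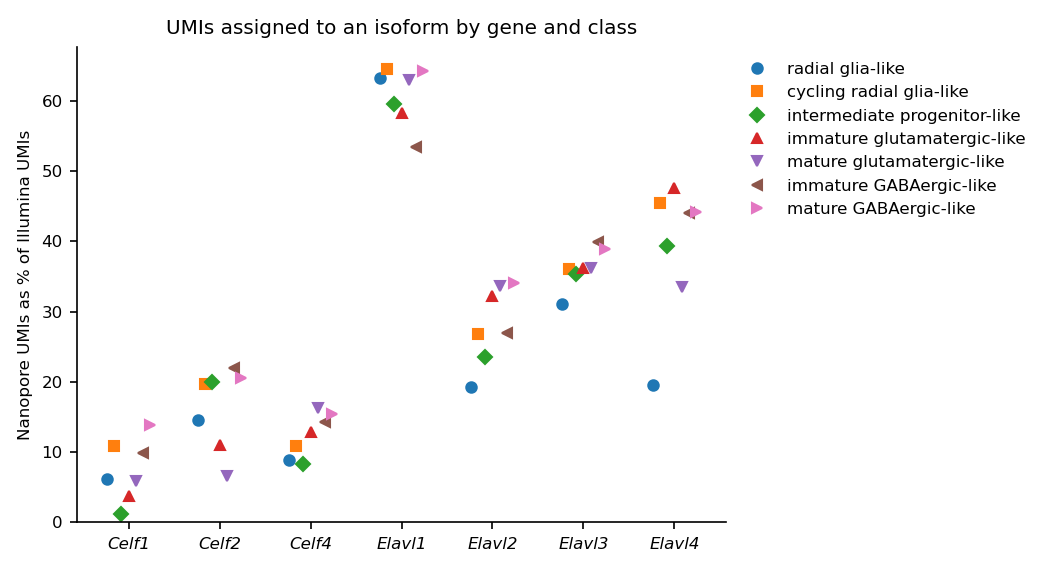
Nanopore UMIs assigned to an isoform as a percentage of Illumina UMIs (y axis) for each gene (x axis), with 1 symbol per class and both aliquots summed. The Elavl1 symbols lie above those of the other genes, the Celf1 symbols lie between 1.16 and 13.9%, and for Celf2 the mature glutamatergic-like symbol (6.62%) lies below its other symbols.

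Isoform use was compared with diffSpliceDGE of edgeR on the same class sums, over 583 genes. Isoforms with low counts were filtered out, and a gene was tested only if at least 2 of its isoforms were left. For Elavl2 3 of 12 isoforms were left, for Celf2 4 of 14, for Elavl4 4 of 6 and for Celf4 2 of 7. Celf1, Elavl1 and Elavl3 did not keep 2 isoforms and were not tested. With the filter, the p-values cover only the isoforms left, and without it 7488 genes were tested. Between neurons and progenitors 2 of the 7 genes were called, Elavl2 (adjusted p = 8.0e-12) and Celf2 (adjusted p = 0.00024), where 26.4% of all genes tested were called. Elavl4 had an adjusted p of 0.177, which became 0.0399 with the replicate block and 0.0062 without the filter. Celf4 had an adjusted p of 0.413. Some isoforms named below are annotated as retaining an intron. The paper reports that reverse transcription also primed at A-rich stretches, among them ones in introns of mRNAs not fully spliced. How many UMIs of the retained-intron isoforms arose in that way was not tested.

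Elavl2 (ENSMUSG00000008489.18, chr4:91250763-91400785 on GRCm38, minus strand) had 12 isoforms in the files. Over all kept cells Elavl2-209 held 49.9% of its UMIs, Elavl2-208 12.4%, Elavl2-204 11.04%, Elavl2-201 10.9% and the retained-intron isoform Elavl2-215 10.3%. Elavl2-204 was mostly found in progenitors. It made up 10 of 16 UMIs in radial glia-like (62.5%), 34 of 83 in cycling radial glia-like (41.0%) and 26 of 79 in intermediate progenitor-like cells (32.9%), against 2 of 163 in immature glutamatergic-like (1.23%), 0 of 123 in mature glutamatergic-like (exact 95% upper limit 2.95%), 1 of 41 in immature GABAergic-like and 1 of 83 in mature GABAergic-like cells. Elavl2-209 ran the other way, with 37 of 178 UMIs in progenitors (20.8%) and 244 of 410 in neurons (59.5%). Relative to the gene, the fit gave a difference, on the natural log scale, of -3.56 for Elavl2-204 and 1.90 for Elavl2-209. The shift was also called from intermediate progenitor-like to immature glutamatergic-like cells (adjusted p = 8.1e-05, with 5.49% of all genes called), from radial glia-like to mature glutamatergic-like cells (adjusted p = 2.4e-06, with 16.3%) and to mature GABAergic-like cells (adjusted p = 2.0e-05, with 14.4%). It was not called between radial glia-like and intermediate progenitor-like cells, where 3.26% of all genes were called, nor between immature and mature neurons of either lineage (2.23% in the glutamatergic-like and 1.2% in the GABAergic-like classes), where edgeR called no member. An unadjusted p under 0.05 was reached by 1 member in the first of these comparisons (Elavl2), by 1 in the glutamatergic-like maturation (Celf2) and by none in the GABAergic-like one.

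Elavl2-204 and Elavl2-209 differ in the hinge before the last RNA recognition motif, through a coding exon of 39 bases that Elavl4 and Elavl3 carry at the same place. The sequences show that exon in capitals between 15 bases of each neighbour, and the junction that replaces it, because the isoforms counted here differ in it. They are in transcript direction on the minus strand, from the Gencode vM21 transcripts on GRCm38. The exons lie at chr4:91254141-91254179 (Elavl2), chr4:110209740-110209778 (Elavl4) and chr9:22024674-22024712 (Elavl3).
Elavl2-209 with the exon: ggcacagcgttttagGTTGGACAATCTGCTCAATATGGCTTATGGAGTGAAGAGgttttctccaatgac
Elavl2-204 without it: ggcacagcgttttagtaggttttctccaat
Elavl4-202 with the exon: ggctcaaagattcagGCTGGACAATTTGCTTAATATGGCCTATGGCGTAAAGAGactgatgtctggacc
Elavl4-207 without it: ggctcaaagattcaggttctccccaatcac
Elavl3-201 with the exon: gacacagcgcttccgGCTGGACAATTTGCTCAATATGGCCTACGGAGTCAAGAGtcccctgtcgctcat
The capitals are alike in 33 of 39 bases between Elavl2 and Elavl4 (84.6%), 34 between Elavl2 and Elavl3 (87.2%) and 35 between Elavl3 and Elavl4 (89.7%). The exon leaves the reading frame open. In Elavl2-204 the next exon also begins 3 bases earlier than in Elavl2-209, and the coding sequences are 347 and 359 codons long.

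Counted over all isoforms whose structure settles the question, the Elavl2 exon was absent from more than 1 in 2 progenitor UMIs and from few neuron UMIs. These shares were looked up after the isoform values had been seen, so they are given with exact binomial 95% intervals, which cover counting error only, and with no test. The exon was absent from 93 of 161 UMIs in progenitors (57.8%, 49.7 to 65.5) and from 9 of 360 in neurons (2.50%, 1.15 to 4.69). By class it was absent from 12 of 16 UMIs in radial glia-like (75%), 43 of 74 in cycling radial glia-like (58.1%), 38 of 71 in intermediate progenitor-like (53.5%), 3 of 144 in immature glutamatergic-like (2.08%), 1 of 110 in mature glutamatergic-like (0.909%), 2 of 35 in immature GABAergic-like (5.71%) and 3 of 71 in mature GABAergic-like cells (4.23%).

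The aliquots differed in the progenitor share of Elavl2. The exon was absent from 6 of 28 progenitor UMIs in the 190 cell aliquot (21.4%, 8.30 to 41.0) and from 87 of 133 in the 951 cell aliquot (65.4%, 56.7 to 73.4), and these intervals do not overlap. The gap was present in cycling radial glia-like cells (3 of 16 and 40 of 58) and in intermediate progenitor-like cells (2 of 11 and 36 of 60), and its cause was not tested. In neurons the aliquots gave 3.33% and 2.33%, below the progenitor share of either aliquot. The progenitor UMIs came from 18 and 78 cells with at most 5 each, and 15 of the 34 progenitor cells with 2 or more UMIs held both forms, against 6 of 69 neuron cells.

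The same exon was then counted in Elavl4 (ENSMUSG00000028546.17, chr4:110203722-110351909, minus strand). It was absent from 35 of 205 UMIs in progenitors (17.1%, 12.2 to 22.9), by aliquot 15 of 78 and 20 of 127, and from 9 of 318 in neurons (2.83%, 1.30 to 5.30). The share was 20.2% in cycling radial glia-like and 11.5% in intermediate progenitor-like cells, 7.58% in immature GABAergic-like cells and at most 1.61% in the other neuron classes. Both aliquots gave nearly the same values here. Radial glia-like cells had only 8 Elavl4 UMIs, and in cycling radial glia-like cells 1 cell gave 10 UMIs. For Elavl3 no counted isoform lacks the exon, so skipping there could not be measured.

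**Figure D4:**
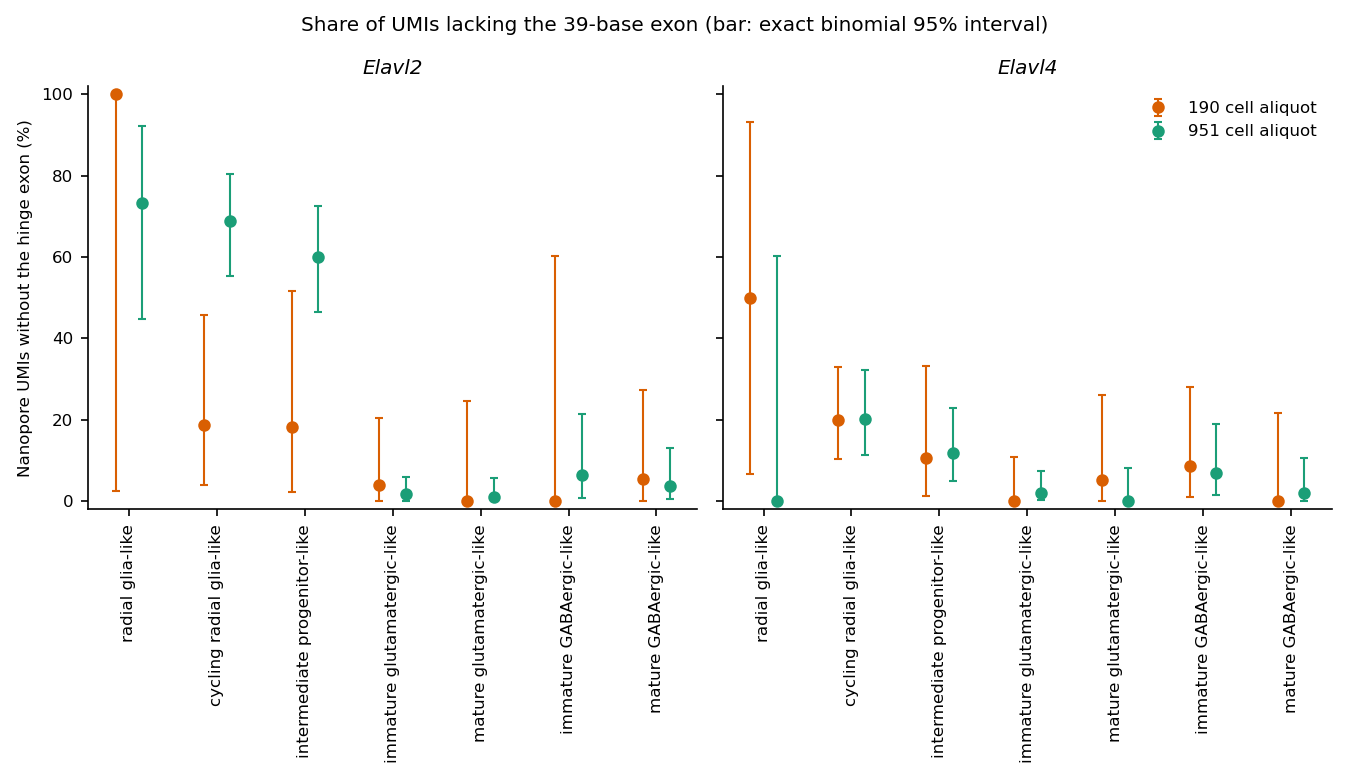
Percentage of Nanopore UMIs that lack the 39-base hinge exon (y axis) of Elavl2 and Elavl4 in the 7 classes (x axis), with 1 point per aliquot and exact binomial 95% intervals. For Elavl2 the progenitor points of the 951 cell aliquot lie between 60 and 73.3%, those of intermediate progenitor-like and cycling radial glia-like cells of the 190 cell aliquot at 18.2 and 18.8%, and all neuron points at or below 6.45%.

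The first exons of Elavl2 differed as well. The first exon of the Elavl2-204 type, which Elavl2-201 and Elavl2-207 share, began 99 of 178 progenitor UMIs (55.6%, 48.0 to 63.0) and 44 of 410 neuron UMIs (10.7%, 7.91 to 14.1). Most others began with the exon of the Elavl2-209 type, which Elavl2-205, Elavl2-208 and Elavl2-215 share (44.4% in progenitors and 87.3% in neurons). By aliquot the Elavl2-204 type held 10 of 31 and 89 of 147 progenitor UMIs and 9 of 68 and 35 of 342 neuron UMIs. First exon and hinge exon are not independent measures, since Elavl2-204 and Elavl2-207 have this first exon and also lack the hinge exon. The gap between the aliquots in progenitors was thus in part counted on the same molecules. Promoter sequences of 300 bases at both starts (RefSeq, GRCm38.p6, chr4:91371991-91372290 and chr4:91376447-91376746) were 72.3% and 56.0% G or C, against a median of 52.7% over 32851 promoters. They held the motif GGGCGG 4 times and 1 time and CCAAT 2 times each, counted on both strands, while 35.7% and 37.4% of all promoters held these motifs. Neither held TATAAA (13.6% of all promoters) or CAGATG (17.2%).

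The isoforms of Elavl4 also differ in their first exon and in a stretch that directly follows the hinge exon. These measures and the hinge exon are not independent, since the form without the exon is 1 isoform, Elavl4-207, which has its own first exon and lacks the later stretch too. Elavl4-202 held 34.4% of its UMIs, Elavl4-204 27.2%, Elavl4-203 19.4%, Elavl4-201 10.99% and Elavl4-207 7.85%. The first exon of the Elavl4-203 type began 52.7% of UMIs in GABAergic-like neurons (43.8 to 61.5) and 21.9% in glutamatergic-like neurons (16.2 to 28.5). By aliquot these were 21 of 38 and 48 of 93 UMIs against 10 of 51 and 31 of 136. The first exon of the Elavl4-202 type began 42.7% and 76.5%. Directly after the hinge exon, Elavl4-202 and Elavl4-203 carry 42 more coding bases (chr4:110206660-110206701). They are shown in capitals because this stretch was in 40.5% of progenitor UMIs (83 of 205) and 60.7% of neuron UMIs (193 of 318). Elavl4-207 made up 17.1% of these progenitor UMIs and 2.83% of these neuron UMIs.
Elavl4-202 extra stretch: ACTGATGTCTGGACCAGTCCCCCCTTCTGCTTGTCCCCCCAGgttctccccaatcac
The share was 40.3% in cycling radial glia-like and 43.6% in intermediate progenitor-like cells and between 56.1 and 66.1% in the neuron classes. Neither feature of Elavl4 was tested by itself.

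Elavl3 and Elavl1 had few isoforms. Elavl3 (ENSMUSG00000003410.8, chr9:22015005-22052023, minus strand) was nearly all Elavl3-201, which held 97.0% of its UMIs, 97.2% in progenitors and 96.9% in neurons. Elavl1 (ENSMUSG00000040028.10, chr8:4285382-4325413, minus strand) had 74.96% of its UMIs on the coding isoform Elavl1-201 and 21.6% on Elavl1-203, which is annotated as a retained intron. The retained-intron share was 5 of 88 in radial glia-like cells (5.68%), 14.7% in cycling radial glia-like cells and between 27.5 and 30.6% in the other 5 classes. It was 35 of 244 in progenitors (14.3%, 10.2 to 19.4) and 79 of 275 in neurons (28.7%, 23.5 to 34.5). By aliquot the progenitor and neuron shares were 21.3 and 24.4% in the 190 cell aliquot, where their intervals overlap, and 12.7 and 29.6% in the 951 cell aliquot, where they do not. The part of priming within introns in these shares was not tested. When the filter on low counts was dropped, Elavl1 was called in mature glutamatergic-like against radial glia-like cells (adjusted p = 0.0123).

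Celf2 (ENSMUSG00000002107.18, chr2:6539694-7509563, minus strand) had the most varied isoforms, 14 in the files. The coding isoform Celf2-206 held 26.2% of its UMIs, the retained-intron isoform Celf2-219 20.4%, Celf2-211 9.98%, Celf2-202 8.91%, Celf2-205 7.75% and Celf2-228, annotated for nonsense-mediated decay, 6.69%. Isoforms annotated as protein coding held 198 of 237 progenitor UMIs (83.5%) and 378 of 652 neuron UMIs (58.0%). They held 96.4% in radial glia-like, 68.8% in mature GABAergic-like and 46.2% in mature glutamatergic-like cells. Retained-intron isoforms held 1 of 55 UMIs in radial glia-like cells, 11.7% in cycling radial glia-like, 20.5% in intermediate progenitor-like and between 28.1 and 34.7% in neuron classes. The aliquots gave 11.4 and 12.95% for progenitors and 28.5 and 32.4% for neurons. Here too the part of priming within introns was not tested.

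Celf2 isoform use differed between the mature neuron classes (adjusted p = 7.8e-05, where 2.4% of all genes tested were called and Celf2 was the only member called). Celf2-206 held 45 of 96 UMIs in mature GABAergic-like cells (46.9%) and 13 of 173 in mature glutamatergic-like cells (7.51%), a gap of 41.8 and 38.6 percentage points in the 190 and the 951 cell aliquot. Celf2-211 held 7.29 and 20.2%, and Celf2-228 2.08 and 15.6%. Relative to the gene the fit gave differences, on the natural log scale, of 1.57 for Celf2-206, -1.02 for Celf2-202 and -2.22 for Celf2-228. Celf2 was also called in mature glutamatergic-like against radial glia-like cells (adjusted p = 4.8e-06). There, on the same natural log scale, Celf2-206 stood at -1.81 and Celf2-219 and Celf2-228 at 2.25 and 1.90. For mature GABAergic-like against radial glia-like cells the adjusted p was 0.177, and 0.0106 without the filter.

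The first exons of Celf2, which mark where these molecules start, differed between the mature neuron classes too, and were not tested. They were counted on the same molecules as the isoform shares above and are not a second, independent result. The Celf2-206 type is shared by Celf2-206 and the retained-intron isoforms Celf2-218 and Celf2-219. The Celf2-211 type is shared by Celf2-202, Celf2-208 (retained intron), Celf2-211, Celf2-213 and Celf2-224. The exon of the Celf2-206 type began 34.7% of UMIs in mature glutamatergic-like (27.6 to 42.3) and 68.8% in mature GABAergic-like cells (58.5 to 77.8), with 48.7% and 61.1% in the immature classes. By aliquot these were 12 of 41 and 48 of 132 UMIs in the mature glutamatergic-like class against 12 of 15 and 54 of 81 in the mature GABAergic-like class. The Celf2-211 type began 42.8 and 19.8%, in the same order. The Celf2-205 type began 16.9% of progenitor and 5.21% of neuron UMIs, and the Celf2-226 type 8.02 and 2.76%.

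**Figure D5:**
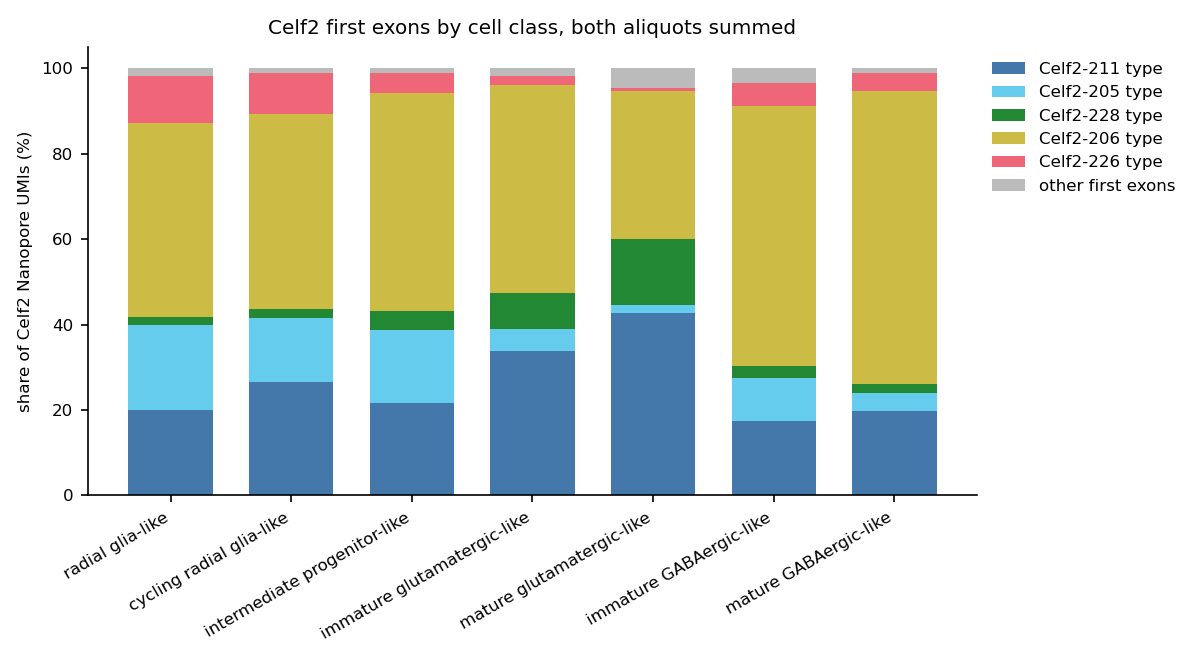
Share of Celf2 Nanopore UMIs (y axis, %) by the first exon they carry, stacked to 100% for each of the 7 classes (x axis) with both aliquots summed. The Celf2-206 type is smallest in mature glutamatergic-like cells (34.7%) and largest in mature GABAergic-like cells (68.8%).

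Celf2 also had a coding exon of 144 bases (chr2:6549832-6549975) in the last RNA recognition motif that Celf2-224 and Celf2-226 lack. It is shown in capitals between its neighbours because the share of molecules without it was lower in neurons than in progenitors.
Celf2-206: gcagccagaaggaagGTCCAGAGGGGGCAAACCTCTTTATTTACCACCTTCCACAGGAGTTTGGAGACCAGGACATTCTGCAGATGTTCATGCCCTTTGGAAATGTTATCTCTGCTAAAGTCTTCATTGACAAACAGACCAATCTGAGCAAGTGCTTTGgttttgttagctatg
It was absent from 41 of 204 progenitor UMIs (20.1%, 14.8 to 26.3) and 34 of 428 neuron UMIs (7.94%, 5.56 to 10.9). By aliquot the shares were 23.1 and 19.4% in progenitors and 4.55 and 8.82% in neurons. Among neurons it was absent from 5.81% of UMIs in glutamatergic-like and 11.2% in GABAergic-like classes. These shares and those of the first exons are not independent, since Celf2-224 and Celf2-226 enter both.

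The isoforms of the other Celf genes rest on few molecules. Celf4 (ENSMUSG00000024268.16, chr18:25477632-25754157, minus strand) had 57 and 276 Nanopore UMIs, of which Celf4-201 held 54.1%, Celf4-203 34.5% and Celf4-206 6.01%. Celf4-203 held 16 of 33 UMIs in progenitors (48.5%) and 76 of 234 in neurons (32.5%), a difference of -64.6 percentage points in the 190 cell aliquot, with 4 progenitor UMIs, and -9.66 in the 951 cell aliquot. Celf1 (ENSMUSG00000005506.16, chr2:90940382-91019497, plus strand) had 67 UMIs in all, 26 of Celf1-206 and 18 of Celf1-203.

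Many single cells held more than 1 isoform. Among cells with at least 2 Nanopore UMIs of the gene, 214 of 253 held 2 or more isoforms of Celf2 (84.6%), 102 of 138 of Elavl2 (73.9%), 95 of 132 of Elavl4 (72.0%), 42 of 60 of Celf4 (70%), 40 of 104 of Elavl1 (38.5%) and 44 of 507 of Elavl3 (8.68%). Elavl3, with nearly all of its UMIs on 1 isoform, was lowest. These counts include the retained-intron isoforms, and cells were not matched between genes for the number of UMIs.

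Genes for related RNA-binding proteins were compared between neurons and progenitors, where 40.6% of all genes tested were called, 19% higher and 21.6% lower, and the median log2 difference over all genes tested was -0.02. Of the other Celf genes, all 3 were higher in neurons with a median of 2.55: Celf5 by 2.83 ± 0.18, Celf6 by 2.55 ± 0.88 and Celf3 by 2.24 ± 0.17. Of 8 genes for proteins that bind AU-rich elements, as ELAV-like proteins do, 6 were tested, 1 was higher and 3 were lower, with a median of -0.33. Zfp36l1 (-5.22 ± 0.33) and Zfp36l2 (-2.89 ± 0.52), which promote decay of such mRNAs, had the largest falls, Hnrnpd stood at -0.55, and Tia1 was higher by 0.34. Of 3 muscleblind genes 2 were tested and none was called, with a median of -0.54. Of 19 genes for other mRNA-binding proteins of the nervous system 3 were higher and 6 lower, with a median of 0.14, a share called near that over all genes. Khdrbs2 (1.94), Stau2 (1.04) and Caprin1 (0.31) were higher, and Msi2 (-1.34), Igf2bp1 (-1.04) and Fxr1 (-0.86) had the largest falls. Of 10 mRNAs known as targets of ELAV-like proteins 8 were tested, 4 were higher and 2 lower, with a median of 0.70. The neuronal cytoskeleton and growth genes Mapt (2.92), Map1b (1.73) and Gap43 (1.62) were higher, and Nrn1 (-2.52) and Marcks (-0.68) were lower.

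The genes most alike to each member over the 14 sums were found by Pearson's r of log2(CPM + 1) among genes with a mean of at least 50 CPM, as a description, since the 14 sums share 2 libraries and differ in depth. For Elavl3 they were Chd3 (0.97), Rufy3 (0.97) and Mir124-2hg (0.96), for Elavl2 Ypel3 (0.85), Eif4g2 (0.84) and Rbfox3 (0.84), and for Elavl4 Cited2 (0.88), Atf7ip (0.86) and Eif4g2 (0.85). For Elavl1 they were Mrps14 (0.96), Nxt1 (0.95) and Rbm28 (0.93). For Celf2 they were Ctxn1 (0.96), Frmd4a (0.94) and Cnr1 (0.93), for Celf4 Sema6c (0.93), Mapk10 (0.93) and Slain1 (0.93), and for Celf1 Eif3h (0.92), Eef1a1 (0.85) and Foxn3 (0.84). Among the members, Elavl2 and Elavl4 (0.83) and Celf4 and Elavl3 (0.82) were most alike, and Elavl1 ran against Celf2 (-0.77) and Celf4 (-0.75).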

How the data were processed

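Cells of 1 E18 mouse brain suspension were measured as a 190 and a 951 cell aliquot on 2 platforms. Per the labels and the methods, the authors made the Illumina files with Cell Ranger 2.0 on mm10 (GRCm38), and the deposited values are raw UMI counts per gene and barcode. For Nanopore the authors mapped reads with minimap2, and the deposited values are raw counts of UMIs by isoform of Gencode vM18, assigned with Sicelore only where the exon structure matched 1 annotated isoform, so molecules with unannotated exon combinations or truncated structures are missing from isoform shares. No column was left unmapped. Annotation and exon sequences came from Gencode vM21 on GRCm38, in which all 52 isoforms were found.

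Barcodes with at least 1400 Illumina genes were kept. Cells were clustered with Seurat 5.3.0 (2000 variable genes, 11 dimensions, resolution 0.8, R 4.3.3), leaving out the 7 members and the gene lists (50 genes, 17 of which would have been variable). Clusters were named from marker lists, and 1113 cells kept their class when all variable genes were used. Scrublet in scanpy 1.11.5 called 3 and 4 doublets, which stayed in, and 5 cells set aside as microglia or mural cells entered no class. Counts were summed per class and aliquot (14 sums) or per library (4) and tested with edgeR 4.0.16 (TMM, filterByExpr, robust quasi-likelihood F test, diffSpliceDGE for isoforms, Benjamini-Hochberg 0.05). SE was derived from the fold change and its p. On simulated counts for neurons against progenitors, 91% of 100 genes changed by 1 log2 unit and 100% of those changed by 2 were called (8152 genes), and for isoform use 69% and 80% (454 genes), for the platforms 63% and 99% (9855 genes). Intervals are exact binomial (Clopper-Pearson, 95%) from scipy 1.17.1 and, like thinned shares, cover counting error only. 

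Same-numbered sums come from the same aliquot: deviations from class means correlated with r between 0.149 and 0.321 over 21 pairs of classes, and 0.597 between platforms, so the blocked fit is given where it changed a call. Members, gene lists and comparisons were chosen with earlier results of these data known. All 7 members, isoforms with at least 5% of their gene's UMIs, up to 3 rising and 3 falling genes per list and 3 like genes per member were named. Exon events and first exons were chosen after their values were seen, and the lineage interaction itself was added after seeing the data. Alternatives were other size factors, no low-count filter, the block, DESeq2 1.42.0, Nanopore sums, all variable genes, no doublets, each aliquot left out and thinning, and, added after seeing the data, the unnamed cluster as immature glutamatergic-like, leaving out shared barcodes, all barcodes for the platform comparison, each aliquot left out for exon shares, and the block and Nanopore sums for the lineage interaction.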

Additional observations from a re-analysis of the deposited data

Results flagged for a closer look

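The change of Elavl2 from immature to mature neurons differed between the lineages: the GABAergic-like minus the glutamatergic-like change was 1.76 ± 0.29 on the log2 scale (edgeR interaction, adjusted p = 0.000164). Elavl2 was 1.11 ± 0.22 higher in mature than in immature GABAergic-like cells, in both aliquots (477.0 against 193.0 and 317.8 against 140.2 CPM). In the glutamatergic-like classes the difference was -0.65 ± 0.20, lower in both aliquots (169.0 against 265.9 and 166.3 against 287.2). The interaction test was added after the data had been seen and uses the same sums. The interaction was 1.76 (adjusted p = 9.72e-10) with the aliquot as a replicate block and 2.27 (adjusted p = 7.71e-05) with Nanopore counts. The Nanopore counts come from the same molecules and are not an independent measurement. The difference within the glutamatergic-like classes was called under 2 of 9 alternatives. The immature GABAergic-like cluster was led by Ebf1, Isl1 and Zfhx3 and the mature one by Maf, Nxph1, Npy and Sst, so maturity and origin of these cells cannot be told apart.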

How the results depend on the processing

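Of 894 values of single members under an alternative, 810 counted as the same, 30 moved, 22 lost the call, 16 gained it and 16 changed sign. The same meant that direction and call were kept or, for isoform use, the call. For values of 1 aliquot alone it meant a distance from the full fit within the SD of the single-aliquot values. Under that rule a full fit near the midpoint of the aliquots counted as the same however far apart they lay. For these values the label therefore does not measure how alike the aliquots were. Sign changes in 1 aliquot alone were counted only for called members. All 66 values of called differences computed in 1 aliquot alone had the sign of the full fit (direction only, since 1 aliquot leaves no test). This is in part built in, since the differences were called from the same aliquots and a call favours those alike in both. Where a cause is not plain from the alternative (fewer cells, fewer counts), the cause was not tested. Signs turned as follows. With Nanopore sums these were Celf2 in mature against immature glutamatergic-like (-0.60) and in mature GABAergic-like against glutamatergic-like cells (0.58), Elavl1 (0.12) and Elavl3 (0.033) in mature against immature GABAergic-like cells, Elavl3 between the mature classes (0.017), and Celf2 (0.35) and Elavl1 (0.14) in the lineage interaction. With the unnamed cluster as immature glutamatergic-like these were Elavl4 in neurons against progenitors (-0.016), Celf1 in immature glutamatergic-like against intermediate progenitor-like cells (-0.068) and Elavl1 in mature against immature glutamatergic-like cells (0.0085). Celf1 in the same step turned with DESeq2 size factors (-0.012) and the DESeq2 Wald test (-0.0030), and Elavl1 between the mature classes with DESeq2 size factors (0.023), without doublets (0.018), without shared barcodes (0.0028) and with the DESeq2 Wald test (0.057). Except Celf2 between the mature classes, none of these was called in either fit.

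Counts of called genes moved by more than 1.5 times as follows. The DESeq2 Wald test called 3071 genes between platforms (4976 by edgeR), 1628 and 1498 in mature glutamatergic-like and GABAergic-like against radial glia-like cells, 566 and 283 in the steps to intermediate progenitor-like and on to immature glutamatergic-like cells, 96 and 91 in the glutamatergic-like and GABAergic-like maturation, and 315 between the mature classes. Nanopore sums, with 4792 genes tested in place of 8152, called 2128 genes in neurons against progenitors, 1749 in mature GABAergic-like against radial glia-like and 148 in mature against immature GABAergic-like cells. They called 3 members in intermediate progenitor-like against radial glia-like cells, where the count of all genes called moved by no more than 1.5 times. The replicate block called 1277 genes and 5 members (755 and 3 without it) in immature glutamatergic-like against intermediate progenitor-like cells, 992 genes and 2 members in the glutamatergic-like maturation, 502 genes in the GABAergic-like maturation and 1210 between the mature classes, and it changed no call of a member beyond those given beside the results. With the unnamed cluster as immature glutamatergic-like, 247 genes were called in the glutamatergic-like maturation. The 1 member called there, Elavl2, became 0 without the low-count filter, with Nanopore sums, with all variable genes, without doublets, without shared barcodes, with that cluster and with the DESeq2 Wald test.

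For isoform use the block called 40 genes from radial glia-like to intermediate progenitor-like and 49 on to immature glutamatergic-like cells, 41 and 12 in the glutamatergic-like and GABAergic-like maturation and 23 between the mature classes. Without the filter 7488 genes were tested in place of 583. In mature glutamatergic-like against radial glia-like cells 152 of 7488 were called, a smaller share than the 95 of 583 (16.3%) with it. Without the filter 2 members were called in mature GABAergic-like against radial glia-like cells, Celf2 and Elavl2. There 407 of 7488 genes had an unadjusted p under 0.05 by edgeR. In immature glutamatergic-like against intermediate progenitor-like cells 13 genes were called without the filter, and 8 between the mature classes. The glutamatergic-like and GABAergic-like maturation had 3 and 0 (271 and 122 at an unadjusted p under 0.05 by edgeR). With the unnamed cluster joined, 7 were called in the glutamatergic-like maturation. Leaving out each aliquot, the progenitor share without the Elavl2 hinge exon ranged from 21.4 to 65.4% and the neuron share without the Celf2 exon from 4.55 to 8.82%. Thinned to 2000 UMIs, the cells with a UMI were 18.4% for Celf1 (57.1% before), 72.3% for Celf2 (93.3%), 35.8% for Celf4 (69.6%), 13.9% for Elavl1 (50.6%), 34.4% for Elavl2, 64.5% for Elavl3 and 21.6% for Elavl4. Low Nanopore counts limit the isoform shares of Celf1, Celf4 and all genes in radial glia-like cells.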

Other observations

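The classes left out of the tests had member levels of their own, given here as values for the 190 and the 951 cell aliquot in CPM. In Cajal-Retzius-like cells, early-born Reln-expressing neurons (4 and 12 cells), Elavl4 stood at 568 and 321, above its mean in each of the 7 tested classes, and Elavl3 at 615 and 675. Celf2 stood at 307 and 140 there, below the values of every tested class. In the unnamed cluster led by Crym and Nrp2 (7 and 77 cells), Celf2 stood at 1145 and 1027, Elavl3 at 685 and 605, and Elavl4 at 9.39 and 55.04. The hinge exon of Elavl2 was absent from 0 of 73 UMIs in that cluster, with an exact 95% upper limit of 4.93%. The Elavl4 extra coding stretch was present in 18 of its 23 UMIs (78.3%, exact interval 56.3 to 92.5). With so few cells these values were not tested.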
